A study of Mus musculus with 12 samples.

Results

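H3K9me3 peaks of brown adipose tissue (BAT) were compared between mice fed a standard chow diet (SCD), labelled as the control diet, and mice on high-fat feeding (HFD). The members are all regions in the peak lists of these 2 libraries, 26835 in SCD and 52758 in HFD. Together they are 79593 of the 266606 regions in the 8 lists of the series, which covers H3K9me2 and H3K9me3 in BAT and in subcutaneous white adipose tissue (WAT). The mice were wild-type C57BL/6J, were 6 weeks old at the start and were fed for 12 weeks. Formaldehyde at 1% was applied for 8 min to cross-link proteins to DNA. The sex of the mice and the number of animals behind a library are not given in the sources used here. Each diet had 1 library, so there is no replicate and no test of the diet. Intervals are exact (Clopper-Pearson) 95% binomial intervals and cover no error other than that of counting.

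A peak was called shared when it overlapped a peak of the other diet by at least 1 bp, and was otherwise called SCD only or HFD only. Of the SCD peaks, 4708 were SCD only (17.5%), and of the HFD peaks, 30063 were HFD only (57.0%). With only the 26835 highest-scoring HFD peaks taken, so that both lists had equal numbers, 8855 peaks were SCD only (33.0%) and 8608 were HFD only (32.1%). These shares are the background against which the groups of peaks below are read.

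H3K9me3, trimethylation of lysine 9 of histone H3, is best known as a mark of heterochromatin. It is bound by HP1 proteins and keeps satellite repeats and transposable elements silent. LINE-1 (L1) elements are retrotransposons that carry a promoter in their 5′ part and the open reading frames ORF1, for an RNA-binding protein, and ORF2, for an endonuclease and reverse transcriptase. BAT burns fatty acids for heat through Ucp1 in its mitochondria, and its genes of heat production and fat use are among the gene lists read below.

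Each entry of the lists has coordinates and a score. The unit of the score is not stated, and it was taken to be 10 times −log10 of a p-value. Both lists begin just above 50. Read depth and fold enrichment are not known from the lists, so a score is not a strength of methylation that can be set across lists. Scores are therefore compared between diets by their percentile within their own list. Where a list has no peak, none was found with the reads of that library, which does not show that the mark was absent. The lists hold no expression values, so the tissue label was not checked against marker genes. BAT is a mixed tissue, and a difference in its cell types cannot be told apart from a difference within cells. The methods of the study pair the name H3K9me3 with an antibody to dimethylated lysine 9, and H3K9me2 with one to the trimethylated form. The names of the labels are kept here.

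The stretches of sequence that recur most often in these peaks are shown because the classes of peaks differed in them. The 20-base words below were the most frequent in the HFD-only, SCD-only or shared SCD peaks after joining overlapping words, and were all found in L1 elements of the mm9 genome. They are in capitals, with the bases that flank them in a full-length element on chromosome 1, on the coding strand of that element. No repeat annotation was used. The elements were recognised by their own structure, with an ORF1 of 1116 bp or 1074 bp, an ORF2 of 3846 bp and, in 2 of 3 types, copies of a 5′ word spaced 212 bp or 208 bp apart. These words and the elements were chosen after the peaks had been examined.

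ORF2, most frequent in HFD-only peaks, mm9 chr1:4556196-4556255, plus strand: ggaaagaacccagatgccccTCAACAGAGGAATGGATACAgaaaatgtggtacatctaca
ORF1, rank 2 in HFD-only peaks, mm9 chr1:4552361-4552420, plus strand: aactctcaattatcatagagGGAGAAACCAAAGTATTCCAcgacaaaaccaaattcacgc
5′ part of type 1, most frequent in shared SCD peaks, mm9 chr1:4550890-4550919, plus strand: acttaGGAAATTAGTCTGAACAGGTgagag
5′ part of type 2, most frequent in SCD-only peaks, mm9 chr1:15732700-15732729, minus strand: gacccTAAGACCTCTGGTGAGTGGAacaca
3′ part, rank 3 in SCD-only peaks, mm9 chr1:4556754-4556783, plus strand: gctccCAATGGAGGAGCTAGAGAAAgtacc

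The first ORF2 word has 39721 copies in the genome on both strands and was present in 11.6% of the HFD-only peaks. It was present in 1.09% of the SCD-only peaks, 0.278% of the shared SCD peaks, 0.325% of the shared HFD peaks and 1.02% of genome windows of 700 bp. The ORF1 word, with 15279 copies, was present in 7.05% of the HFD-only peaks and in 0.178% of the SCD-only peaks. The words of the 5′ part had the opposite order. The type 2 word was present in 10.2% of the SCD-only peaks, 8.33% of the shared SCD peaks and 0.810% of the HFD-only peaks. The type 1 word was present in 11.3% of the shared SCD peaks, 7.10% of the SCD-only peaks and 0.263% of the HFD-only peaks. The word of the 3′ part was found on both sides, in 7.12% of the HFD-only and 5.68% of the SCD-only peaks, and in fewer shared peaks (0.712% in SCD). The ORF words thus recurred in HFD-only peaks and the words of the 5′ part in the shared and SCD-only peaks.

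Whole peaks were then aligned to the elements and called L1 where at least 50% of their width aligned. L1 peaks were 14655 of the 29621 HFD-only peaks on placed chromosomes (49.5%, 95% CI 48.9% to 50.05%). They were 27.8% of the SCD-only peaks (26.5% to 29.1%), 21% of the shared SCD peaks and 20.8% of the shared HFD peaks, against 8.92% of genome windows. The part of the element differed more than the total. ORF1, ORF2 or the 3′ part held 48.3% of the HFD-only peaks, 8.50% of the SCD-only peaks, 0.972% of the shared SCD peaks and 1.31% of the shared HFD peaks. Genome windows held 8.58%. Most of the HFD-only peaks of this kind lay on ORF2, with 9686 peaks (32.7%), followed by the 3′ part with 2484 (8.39%) and ORF1 with 2151 (7.26%). In contrast, the 5′ part, where the L1 promoter lies, held 20.03% of the shared SCD peaks, 19.3% of the SCD-only peaks and 19.5% of the shared HFD peaks, but 1.13% of the HFD-only peaks (1.01% to 1.25%) and 0.344% of windows. At equal numbers of peaks, 48.6% of the HFD-only peaks still lay on ORF1, ORF2 or the 3′ part. Reads with multiple mapping sites had been discarded by the authors, and the part of that step in these values was not tested.

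**Figure D1:**
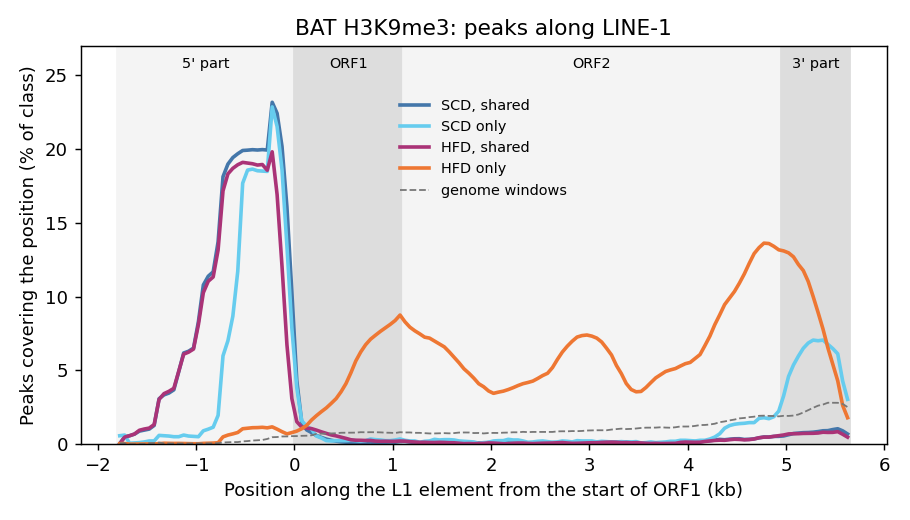
Share of the peaks of each class (y axis, percent) that covered each position along the L1 element (x axis, kb from the start of ORF1, in bins), with windows of the genome as a dashed line and the parts of the element shaded. The shared and SCD-only classes reached 19.8% to 23.2% at 225 bp before ORF1, while HFD-only peaks reached 13.6% at 4775 bp, near the end of ORF2.

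Along the element, the HFD-only peaks had a maximum of 13.6% at 4775 bp after the start of ORF1 and another of 8.76% at 1075 bp, near the end of ORF1. They were never above 1.18% before ORF1. The shared SCD peaks had their maximum of 23.2% at 225 bp before ORF1, the SCD-only peaks 22.9% and the shared HFD peaks 19.8% at the same place. After ORF2 the SCD-only peaks had a second, lower maximum of 7.06% at 5275 bp. The L1 peaks of the HFD-only class had a median score of 75.9 and a median width of 650 bp, against 76.2 and 617 bp for its other peaks. Within the HFD list, the share of peaks on ORF1, ORF2 or the 3′ part was 46.4% in decile 1 of the score, the lowest, and 1.60% in decile 10. The strongest L1 peaks in HFD only were on ORF1 at chrX:146671888-146672758 (score 1282.96) and on ORF2 in an intron of Grin3a, an NMDA receptor subunit, at chr4:49746604-49747847 (1225.21).

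Sharing went with the score. In SCD, 46.9% of the peaks in decile 1 and 99.96% in decile 10 had an HFD peak. In HFD, 9.70% of the peaks in decile 1 and 96.1% in decile 10 had an SCD peak. The median score was 175 for shared and 65.4 for SCD-only peaks, and 211 for shared and 76.0 for HFD-only peaks. The shared peaks were also wider, with a median of 1000 bp in SCD and 861 bp in HFD, against 616 bp for SCD-only and 632 bp for HFD-only peaks. Few peaks were near the limit of the overlap rule. Of the shared peaks, 12 in SCD and 54 in HFD overlapped by 100 bp or less, and of the peaks in 1 diet only, 30 in SCD and 138 in HFD had a peak of the other diet within 100 bp. The nearest peak of the other diet was more than 10 kb away for 56.4% of the SCD-only and 58.6% of the HFD-only peaks.

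**Figure D2:**
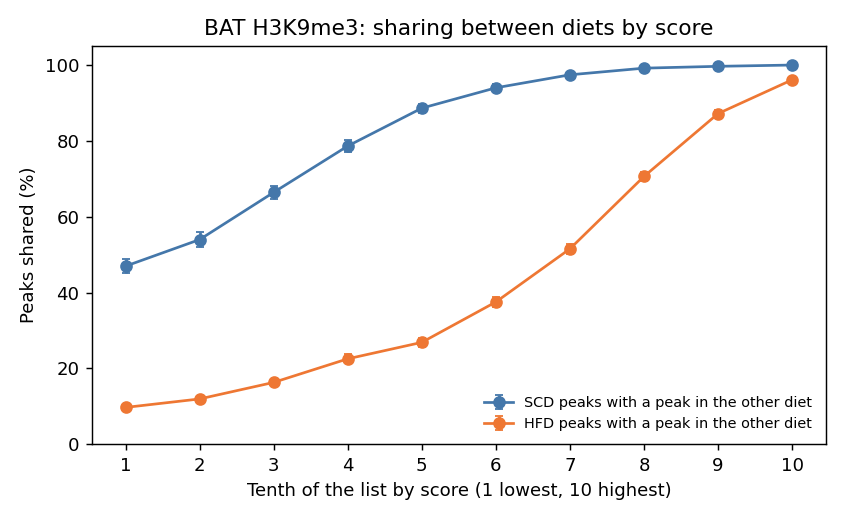
Share of peaks with a peak in the other diet (y axis, percent) by decile of the score within each list (x axis), with exact 95% intervals as bars, many of them smaller than the points. In SCD the share was 46.9% in decile 1 and 99.96% in decile 10, and in HFD 9.70% and 96.1%.

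In 21429 cases 1 SCD peak overlapped 1 HFD peak and no other. In these pairs the HFD peak was the narrower in 78.7%, with a median width ratio of 0.893 (quartiles 0.791 and 0.984). The score percentile was higher in HFD by a median of 11.6 points. The HFD-only peaks, which mostly scored low, raise the percentile of the shared HFD peaks by construction, so pairs were compared with that median. Against it, pairs in exons away from promoters were higher (27.7 points, n = 1239), followed by pairs at promoters (14.1, n = 10842). Pairs in introns (7.80), pairs in intergenic regions (5.73) and pairs on the 5′ part of L1 (1.16, n = 4332) were lower. The groups did not begin alike. The median SCD percentile was 36.9 for pairs in exons, 63.0 at promoters, 55.3 in introns and 54.0 in intergenic regions. It was 66.4 on the 5′ part of L1 and 58.1 over all pairs. Pairs in exons thus had the most room to rise, and the part of this in their difference was not tested. On the X chromosome the median was -4.86 points (n = 752), so that X was the 1 group of these pairs with a lower percentile in HFD.

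Base composition also set the HFD-only peaks apart. The median GC content was 60.9% in shared SCD peaks, 62.2% in shared HFD peaks and 54.9% in SCD-only peaks, but 45.2% in HFD-only peaks, with quartiles of 39.2% and 57.9%. Genome windows had a median of 41.6%. The HFD-only class had a low and a high group. Of its peaks, 49.0% had a GC content of 35% to 45% and 34.4% one of 55% to 65%, while in the SCD-only class these shares were 5.04% and 46.9%. The L1 peaks in HFD only had a median GC content of 39.4% and the others 57.699%. CpG sites numbered a median of 9.88 per kb in HFD-only peaks, 32.9 in SCD-only, 54.6 in shared SCD and 58.9 in shared HFD peaks. The part of base composition in the difference between the lists was not tested.

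**Figure D3:**
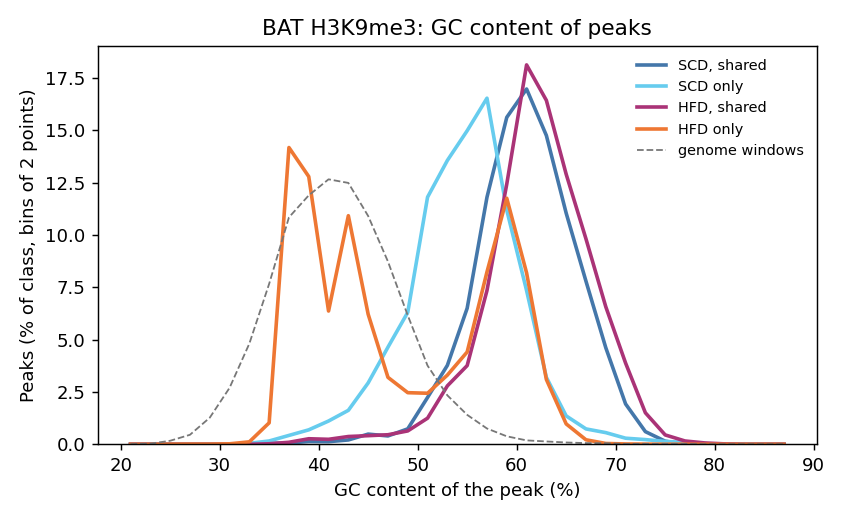
Distribution of GC content (x axis, percent, in bins of 2 points) over the peaks of each class (y axis, percent of the class), with genome windows as a dashed line. Shared and SCD-only peaks had single maxima, with medians of 54.9% to 62.2%, whereas HFD-only peaks were spread over a low and a high range with quartiles of 39.2% and 57.9%.

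Promoters were taken to reach 3 kb from each start site of a protein-coding gene. Shared peaks lay at promoters in 51.7% of cases in SCD and 51.9% in HFD, SCD-only peaks in 17.2% (16.1% to 18.3%) and HFD-only peaks in 15.6% (15.2% to 16.01%). Intergenic peaks made up 61.8% of the SCD-only and 55.1% of the HFD-only class. Exons away from promoters held 5.04% of the SCD-only and 9.25% of the HFD-only peaks, and introns 16.01% and 20.05%. The L1 peaks and the others were unlike in this respect. Of the HFD-only L1 peaks, 78.8% were intergenic, 20.2% intronic, 1.02% at promoters and 0.0478% in exons. Of the 14966 other HFD-only peaks, 29.9% were at promoters, 18.3% in exons, 19.9% in introns and 32.0% intergenic. In the SCD-only class without L1, exons held 6.98% and promoters 23.3%.

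The 2 kinds of HFD-only peaks lay in different parts of the genome. In windows of 1 Mb with no protein-coding gene there were 8.04 HFD-only peaks per Mb on ORF1, ORF2 or the 3′ part of L1, and 1.17 per Mb elsewhere. In windows with more than 40 genes there were 4.40 and 27.4 per Mb. SCD-only peaks changed less, from 1.66 to 3.09 per Mb. The whole lists also rose between these windows, from 5.86 to 29.6 per Mb in SCD and from 13.4 to 59.3 per Mb in HFD. The window with most HFD-only peaks was chr10:80000001-81000000, which was dense in peaks of both diets. Of its 199 HFD peaks 112 were HFD only, beside 57.0% over the whole HFD list, and of its 81 SCD peaks 1 was SCD only. It holds 59 genes. These include Dot1l, the H3K79 methyltransferase, Eef2, a translation elongation factor, Map2k2, a MAPK kinase, and Gadd45b. In the window before it, chr10:79000001-80000000, 106 of 181 HFD peaks were HFD only and 6 of 75 SCD peaks SCD only. Stk11, the kinase LKB1, the methyl-CpG binding family gene Mbd3 and Tcf3 are among its 61 genes. The third was chr4:151000001-152000000, with 75 of 110 HFD peaks and 3 of 36 SCD peaks in 1 diet only. In none of these 3 windows did an HFD-only peak lie on ORF1, ORF2 or the 3′ part of L1.

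Within genes, the HFD-only peaks outside L1 and away from promoters were placed 5878 times. Of these, 32.0% were in the fifth of the gene nearest its end and 11.2% in the fifth nearest its start. The shared SCD peaks had 36.3% and 9.99%, and the SCD-only peaks 26.97% and 11.5%. Of the peaks placed in this way, 47.8% of the HFD-only and 30.8% of the SCD-only ones touched an exon. The shares were higher in the shared peaks, with 52.8% in SCD and 53.5% in HFD. In 3273 genes there was at least 1 such HFD-only peak and in 152 at least 5, against 670 and 1 for SCD-only peaks. The SCD-only peaks were placed only 749 times, against 5878. The gene counts were not taken at equal numbers of peaks, so they are not read as a difference between the diets. This measure and the genes named for it were chosen after the positions had been seen. The highest count, 181, was at Gm20388, a gene model of 4435 kb that spans many other genes. Hspg2, which encodes the basement membrane proteoglycan perlecan, held 18 HFD-only peaks, 17 of them in exons, and no SCD-only peak over 102 kb. Dnahc17, a dynein heavy chain gene, held 17 with 16 in exons, and 1 SCD-only peak. Itpr3, a calcium release channel of the endoplasmic reticulum, held 12 with 12 in exons. In contrast, Camta1, a transcription factor gene of 802 kb, held 19 with none in an exon.

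The autosomes were alike in the share of peaks in 1 diet only. For SCD it ranged from 12.4% on chromosome 11 to 19.8% on chromosome 14, and for HFD from 53.1% on chromosome 19 to 58.7% on chromosome 3. The X chromosome stood outside the SCD range, with 39.2% of its 1254 peaks SCD only (36.4% to 41.9%). Its HFD share of 55.9% was within the autosomal range. HFD peaks per SCD peak numbered from 1.85 on chromosome 19 to 2.15 on chromosome 8, and 1.40 on X. At equal numbers of peaks this ratio was 0.957 to 1.12 on autosomes, and X had 762 HFD against 1254 SCD peaks.

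With the L1 peaks left out, the lists parted further on X. There were then 468 HFD against 676 SCD peaks on X, a ratio of 0.692, while the autosomes ranged from 1.38 to 1.89 and had 1.63 together. Outside L1, 45.3% of the X peaks in SCD were SCD only (41.5% to 49.1%), against 14.8% on autosomes, and 19.4% of those in HFD were HFD only (15.95% to 23.3%), against 46.1%. On X, 89.5% of the HFD-only peaks lay on ORF1, ORF2 or the 3′ part of L1, against 46.9% on autosomes. Genome windows on X were also richer in these parts, with 17.8% against 7.95% on autosomes. These parts of L1 had 58 SCD and 897 HFD peaks on X and 536 and 13704 on autosomes. The 5′ part had 520 and 391 on X and 4721 and 4310 on autosomes, so that its peaks were fewer in HFD on both. Strong SCD-only promoter peaks on X were at Map3k15, a MAPK kinase kinase gene (score 318.34), Ngfrap1 (288.55), Zfp275 (158.01) and Irak1, a kinase of interleukin 1 receptor signaling (155.59). The analysis of X without L1 was chosen after the values had been seen. The sex of the animals is not stated, and its part was not tested.

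**Figure D4:**
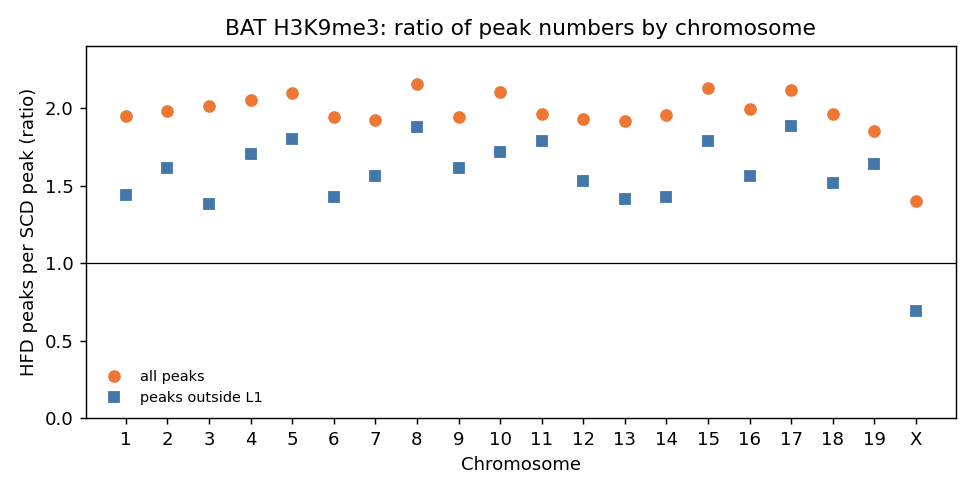
Number of HFD peaks per SCD peak (y axis, ratio) on each autosome and X (x axis), for all peaks (circles) and for peaks outside L1 (squares), with a line at equality. All autosomes lay between 1.85 and 2.15 for all peaks and between 1.38 and 1.89 outside L1, and X at 1.40 and 0.692.

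The strongest HFD-only peaks held more tandem repeats than the rest of the class. A peak was called tandem when at least 20% of its 20-base words recurred within it, a rule chosen after the values had been seen. Of the 103 HFD-only peaks with a score of 500 or more, 51 were tandem (49.5%) and 35 lay on ORF1, ORF2 or the 3′ part of L1. Of all HFD-only peaks, 6.29% were tandem. The SCD-only class had 2 peaks with such a score and none was tandem, while 42.3% of the shared SCD peaks and 29.1% of the shared HFD peaks with such a score were tandem. The scores of exactly 3100 recurred, in 10 SCD and 34 HFD peaks, so the order at the top was not read. A peak of 2043 bp at the promoter of Tmem125, at chr4:118219417-118221459 (score 3100), was built of units 44 bp apart. Part of it is shown in mm9 with the recurring word in capitals.

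Tandem word at Tmem125, mm9 chr4:118219676-118219807, plus strand: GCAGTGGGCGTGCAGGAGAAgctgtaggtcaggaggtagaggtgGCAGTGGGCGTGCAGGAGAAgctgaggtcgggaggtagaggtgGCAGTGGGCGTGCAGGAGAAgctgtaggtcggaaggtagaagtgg

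There was no SCD BAT H3K9me3 peak here, but 5 of the 8 lists held a peak, among them SCD WAT H3K9me2 with a score of 246.76 and HFD BAT H3K9me2 with 177.14. Other HFD-only peaks with a score of 3100 were at chr13:74665830-74668729, with units 24 bp apart, and at the promoter of Tcte2 on chromosome 17, with units 19 bp apart. The array of 5S rRNA genes on chromosome 8, spaced 1699 bp, was covered over 20065 bp by 2 HFD-only peaks. In SCD WAT H3K9me3 7 peaks covered 18977 bp of it, and in SCD BAT H3K9me2 1 peak covered 4875 bp. Near the end of X, 13 HFD-only peaks covered 62874 bp of an array with scores up to 2239.55. The SCD BAT lists and the HFD WAT H3K9me3 list held no peak there, while the SCD WAT lists held 12 for H3K9me2 and 11 for H3K9me3. The array of Dux, the homeobox gene of early embryonic gene activation, on chromosome 10 had 3 HFD-only peaks and a peak in all lists other than SCD BAT H3K9me3. Another array, at chr6:47619997-47704463, held 4 HFD-only peaks, 2 of them with a score of 3100, and no peak of any SCD list overlapped these 4, although 1 peak of SCD BAT H3K9me3 (430.37) and 1 of SCD BAT H3K9me2 (84.72) lay elsewhere in the array. The Tcte2 peak also overlapped no peak of an SCD list.

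Some SCD-only peaks lay on a repeat of chromosome 6 that also carried HFD peaks. The window with most SCD-only peaks, chr6:114000001-115000000, held 18 of them, with scores of 50.1 to 100.96, and 23 HFD-only peaks. Of the SCD-only peaks there, 16 shared the 20-base word in capitals below, which has 60 copies in the genome, all in this window.

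Word of the chromosome 6 window, mm9 chr6:114464334-114464413, plus strand: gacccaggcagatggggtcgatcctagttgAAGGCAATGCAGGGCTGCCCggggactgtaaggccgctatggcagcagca

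The word was present in 27 of the 40 SCD peaks and in 21 of the 45 HFD peaks of the window, so the array carried peaks in both diets. The SCD-only peaks with it overlapped no protein-coding gene. The next windows were chr7:71000001-72000000 with 16 SCD-only and 14 HFD-only peaks, chrX:27000001-28000000 with 12 and 2, and chrX:30000001-31000000 with 12 and 13.

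At promoters, 13676 protein-coding genes had a peak in either diet, of 22380 annotated. Of these, 11215 had a peak in both, 484 in SCD only (3.54%) and 1977 in HFD only (14.5%). At equal numbers of peaks, of 12518 genes, 1437 were SCD only (11.5%) and 819 HFD only (6.54%). A gene list is read below against these shares. The order of the diets thus turned with the number of peaks taken. Genes with a peak in 1 diet had promoters with fewer CpG sites. The median was 67.9 per kb in genes with peaks in both, 40.96 in SCD only, 38.0 in HFD only and 10.99 in genes with neither. The strongest promoter peak covered a start site in 87.6%, 69.6% and 58.0% of the genes with a peak. In 7 of the SCD-only and 70 of the HFD-only genes that peak lay on L1.

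The strongest promoter peaks in SCD only included those at Hoxa4, a homeobox gene of body axis patterning (score 409.76), the zinc finger gene Zfp618 (320.77), Pcsk2, a prohormone convertase (307.57), and Rap1a, a small GTPase next to the MAPK pathway (280.58). Slk, a Ste20-like kinase (248.71), Adipor2, an adiponectin receptor (243.16), Sos2, a Ras exchange factor (237.09), and Traf3, an adaptor of TNF receptors (235.76), followed. All of these peaks covered a start site. The highest score, 824.74, belonged to Olfr419, whose peak began 2978 bp from its start and itself overlapped an HFD peak that lay outside the promoter. This held for 9 of the 484 genes and for 2 of the 1977 in HFD only. In HFD only, 3 genes of the Dux region, 4933403O03Rik, Gm10807 and Gm4981, had the highest score among the genes in HFD only through the same peak (2373.78), and Dux itself had 820.64. Tmem125 and Tcte2, whose HFD peaks scored 3100, are not among these genes, since another SCD peak lay elsewhere at their promoters (173.37 at Tmem125 and 657.72 at Tcte2). Thada had 2184.98 at 1890 bp from its start. Cdkn1a, the cell cycle inhibitor p21, had a peak over a start site (658.84), as had Frem2, an extracellular matrix gene (488.82), Fgf15, the gut hormone of bile acid feedback (454.62), and Hjurp and Trpm8, which share a peak (453.31).

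The promoter sequences below are shown for 4 genes whose peak in 1 diet covered the whole window from 270 bases before to 30 bases into the transcript, with CpG sites in capitals. Over 22367 promoters, windows of this length held a median of 11 CpG sites (quartiles 3 and 22), and 94.6% held at least 1. The search was for CG, which reads the same on both strands.

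Ucp1, mm9 chr8:85813977-85814276, plus strand, HFD only: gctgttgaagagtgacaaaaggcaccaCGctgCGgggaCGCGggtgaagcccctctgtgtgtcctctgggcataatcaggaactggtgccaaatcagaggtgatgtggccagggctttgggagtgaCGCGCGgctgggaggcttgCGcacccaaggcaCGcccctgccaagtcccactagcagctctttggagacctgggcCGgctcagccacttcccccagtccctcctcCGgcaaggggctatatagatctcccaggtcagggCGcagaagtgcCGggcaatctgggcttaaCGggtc
Acly, mm9 chr11:100389285-100389584, minus strand, HFD only: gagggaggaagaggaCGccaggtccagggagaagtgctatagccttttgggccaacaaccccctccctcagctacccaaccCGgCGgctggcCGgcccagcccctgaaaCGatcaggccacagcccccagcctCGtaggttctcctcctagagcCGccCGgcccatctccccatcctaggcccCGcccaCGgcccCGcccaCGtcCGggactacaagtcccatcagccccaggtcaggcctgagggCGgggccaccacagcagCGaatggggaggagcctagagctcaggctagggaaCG
Hoxa4, mm9 chr6:52141723-52142022, minus strand, SCD only: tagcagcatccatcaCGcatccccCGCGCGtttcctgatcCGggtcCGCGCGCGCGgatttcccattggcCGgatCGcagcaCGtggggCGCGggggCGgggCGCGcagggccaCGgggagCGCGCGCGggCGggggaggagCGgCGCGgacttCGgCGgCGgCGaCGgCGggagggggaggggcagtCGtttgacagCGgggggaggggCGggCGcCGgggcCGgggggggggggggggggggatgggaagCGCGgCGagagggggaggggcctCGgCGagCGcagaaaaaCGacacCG
Sos2, mm9 chr12:70782810-70783109, minus strand, SCD only: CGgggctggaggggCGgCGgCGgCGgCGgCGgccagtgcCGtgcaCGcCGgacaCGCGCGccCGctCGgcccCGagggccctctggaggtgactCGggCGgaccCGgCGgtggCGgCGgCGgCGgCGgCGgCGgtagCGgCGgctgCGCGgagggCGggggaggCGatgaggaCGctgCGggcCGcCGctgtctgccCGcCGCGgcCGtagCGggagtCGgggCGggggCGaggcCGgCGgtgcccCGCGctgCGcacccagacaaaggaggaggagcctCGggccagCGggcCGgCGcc

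These windows held 14 CpG sites in Ucp1, 16 in Acly, 47 in Hoxa4 and 54 in Sos2. As many as in Hoxa4 were found in 1.51% of promoters and as many as in Sos2 in 0.407%, while Ucp1 and Acly lay between the quartiles. These 4 genes do not stand for their classes, whose medians of 40.96 per kb in SCD only and 38.0 in HFD only were close. The peak over Ucp1 was 648 bp wide with a score of 129.42, and that over Acly 1389 bp with 284.03. The peak over Hoxa4 was 1366 bp wide and that over Sos2 1348 bp.

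Of 35 genes of brown adipocytes and heat production, 32 had a promoter peak in either diet, 23 in both, 8 in HFD only (25%) and 1 in SCD only. The HFD-only genes were Ucp1, the proton carrier of heat production (129.42), Cidea, a lipid droplet protein (131.89), the transcription factor Atf2 (256.04), the mitochondrial deacetylase Sirt3 (64.36, a peak shared with Psmd13), the brown fat factor Ebf2 (59.52), the fatty acid elongase Elovl3 (58.79), Irf4 (53.82) and the cytochrome oxidase subunit Cox8b (50.07). At equal numbers only Atf2, Cidea and Ucp1 of these were HFD only (11.1%), and the others were below the lowest score then kept, 101.41. Fgf21, a hormone made by heat-producing fat, was the SCD-only gene, through a weak peak shared with Fut1 (59.81). Prdm16, a regulator of brown fat identity, had scores of 418.3 in SCD and 848.33 in HFD, at percentiles 85.4 and 98.3. Zic1, a brown fat marker, was at percentiles 51.0 and 95.5, and the adrenergic receptor gene Adrb3 at 47.8 and 95.9. The median difference in percentile was 14.3 points over the brown adipocyte list and 8.80 over the adrenergic list, which holds Adrb3, against 13.5 over all genes with peaks in both. The lists thus had differences like those of all genes, with members from -4.80 points for the corepressor Ctbp1 to 44.5 for Zic1 in the brown adipocyte list. The median SCD percentile was 80.2 in the brown adipocyte and 80.7 in the adrenergic list, against 66.2 over all genes with peaks in both. Both lists thus had less room to rise. Ppargc1a, Dio2 and Cox7a1 had no promoter peak in either diet.

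Of 30 genes of lipolysis and fatty acid oxidation with a peak, 8 were HFD only (26.7%) and Slc25a20, the carnitine carrier, was SCD only (57.86). The HFD-only genes included Acaa2, the last thiolase of mitochondrial oxidation (205.68), G0s2, an inhibitor of lipolysis (98.1), Fabp3, a fatty acid binding protein (92.07), and Pnpla2, the triglyceride lipase ATGL (86.94). At equal numbers the list had 2 HFD-only (8.33%) and 3 SCD-only genes (12.5%). Cpt1a, the gate of fatty acid entry into mitochondria, had peaks in both, at percentile 39.7 in SCD and 85.0 in HFD. The median difference of the list was 21.3 points, from a median SCD percentile of 44.1, against 66.2 over all genes with peaks in both.

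Of 24 genes of lipogenesis and triglyceride synthesis with a peak, 4 were HFD only (16.7%) and none SCD only. These were Acly, which makes cytosolic acetyl-CoA (284.03), Dgat2, of the last step of triglyceride synthesis (158.94), the acetyl-CoA carboxylase gene Acacb (123.36) and Mogat1 (58.04). The first 3 remained HFD only at equal numbers (13.04%). Fasn, the fatty acid synthase gene, had peaks in both with scores of 398.9 and 742.52, at percentiles 84.2 and 97.4. In contrast, Agpat3 was at 78.6 in SCD and 27.4 in HFD, and Lpin2 at 96.4 and 75.4, so the members did not move alike.

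Of 65 nuclear genes of oxidative phosphorylation with a peak, 18 were HFD only (27.7%) and 4 SCD only (6.15%). The strongest HFD-only peaks were at the complex I gene Ndufa11, shared with Vmac (265.09), the complex II gene Sdhd, shared with Timm8b (193.84), and the complex I genes Ndufb7 (182.51) and Ndufs7 (162.82). Ndufb3 (102.26, shared with Fam126b) and Cox7a2 (88.8) were SCD only. At equal numbers the counts were 9 HFD only (16.1%) and 12 SCD only (21.4%), both above the shares of all genes.

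The signaling lists are read against the 11215 of 13676 genes that had a peak in both diets. Genes were counted by annotated entry, and Dusp8 and Fgfr1 each have more than 1 entry among the MAPK genes with peaks in both. Of 73 MAPK entries with a peak, 68 had it in both. Rap1a and Sos2 were SCD only (2.74%) and 3 genes HFD only (4.11%), among them Mapkapk3, a kinase downstream of p38 (88.42). At equal numbers, 7 MAPK genes were SCD only (9.86%) and 1 HFD only (1.41%). Of 39 genes of insulin signaling with a peak, Irs4, an insulin receptor substrate on X, was SCD only (104.89) and Mtor, the kinase of the mTOR complexes, HFD only (139.58), also at equal numbers. Of 27 TNF and NF-kB genes with a peak, 2 were SCD only (7.41%), Traf3 (235.76) and Irak1 (155.59), and 3 HFD only (11.1%), among them Irak4, which shares its peak with Pus7l (120.33), and Icam1, an adhesion molecule (67.4). With 22 of 27 in both, this list was close to all genes, and at equal numbers 4 of its genes were SCD only (16%) and 1 HFD only (4%). Of 38 adrenergic and cAMP genes with a peak, 36 had it in both.

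Several lists of markers of other cell types had more HFD-only genes than all genes had, mostly on low scores. The counts were 4 of 7 macrophage markers, with Cx3cr1 highest at 108.97, 5 of 14 endothelial markers, with Plvap at 131.96 and Eng at 95.86, and 6 of 13 markers of preadipocytes and fibroblasts, with Pi16 at 233.08 and Thy1 at 92.55. These counts are 57.1%, 35.7% and 46.2%, against 14.5% of all genes. None of these 3 lists had an SCD-only gene. At equal numbers each kept 1 HFD-only gene, Cx3cr1 of 4 with a peak (25%), Plvap of 10 (10%) and Pi16 of 8 (12.5%). The SCD-only genes were then 1 (25%), 2 (20%) and 1 (12.5%). Over all genes the shares were 6.54% for HFD only and 11.5% for SCD only. The promoters of these 3 lists had few CpG sites, with list medians of 10.5, 25 and 19.5 per kb against 40.96 over all annotated genes. Of 24 white adipocyte genes with a peak, 21 had it in both, and of 14 nerve and Schwann cell markers, all 14. Of 15 muscle markers, 3 were HFD only and 2 SCD only, which turned to 0 and 3 of 12 at equal numbers. Peaks were found at 3 of 22 lymphocyte markers. A histone mark at a promoter does not measure expression, and the part of the cell types in these counts was not tested.

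**Figure D5:**
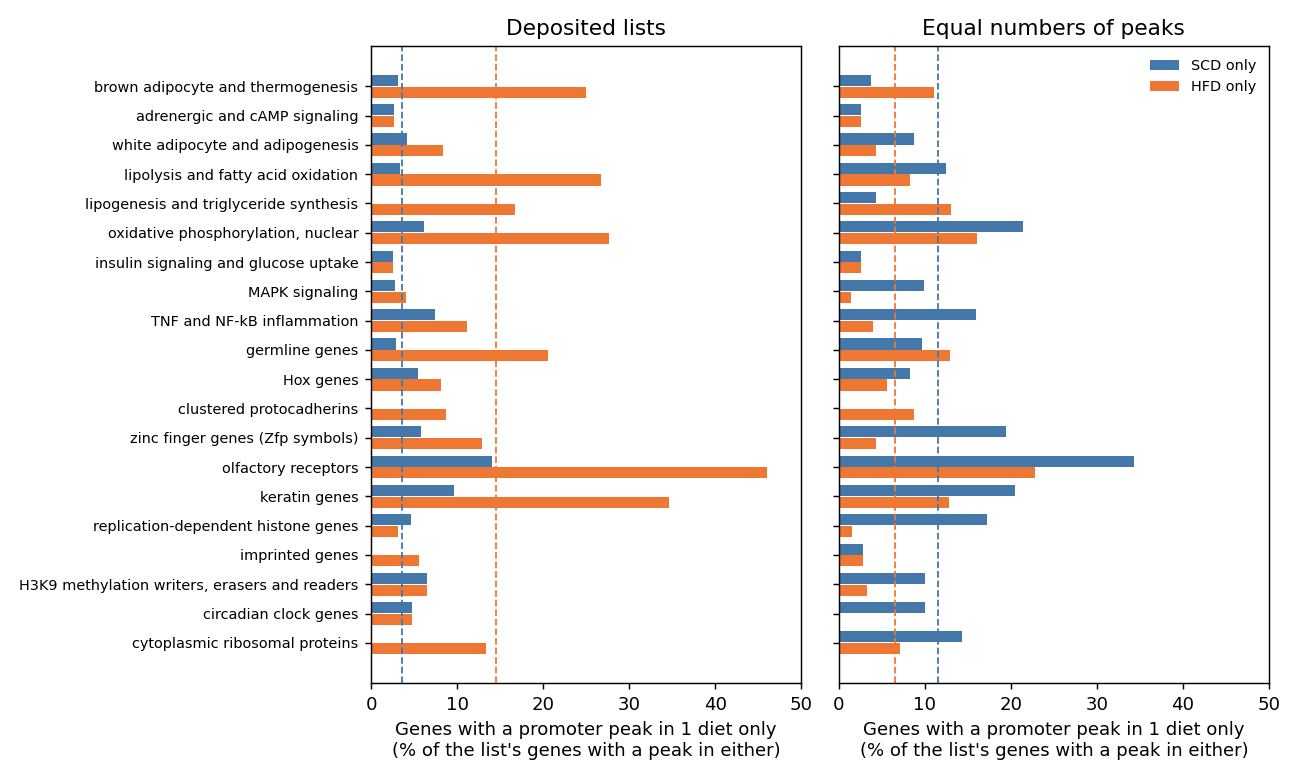
Share of the genes of each list with a promoter peak in either diet that had it in SCD only (blue) or HFD only (orange), for the deposited lists (left) and equal numbers of peaks (right), for lists with at least 20 such genes. Dashed lines mark the shares of all genes, 3.54% and 14.5% on the left and 11.5% and 6.54% on the right, and the bars of the brown adipocyte list for HFD only reach 25% and 11.1%.

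Among genes with peaks in both diets, some changed their place within the lists. Dhx33, an RNA helicase, was at percentile 78.0 in SCD (score 316.8) and 2.09 in HFD (50.96). Ankrd40 was at 73.2 and 5.99, Fhl1, a LIM domain protein gene of muscle on X, at 74.8 and 10.6, and Tsn, for the RNA-binding protein translin, at 68.1 and 9.20. In the other direction, Hk1, a hexokinase, was at percentile 7.40 in SCD (55.21) and 92.6 in HFD (468.67). Wdr81 was at 0.706 and 86.9 and Pon1, a paraoxonase, at 1.40 and 86.5. For Commd1 and Chtf18 the peaks of the 2 diets were at different places of the promoters.

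The other lists of the series set these classes apart. Of the HFD-only L1 peaks, 81.0% overlapped no peak of the other 6 lists, 17.3% overlapped HFD WAT H3K9me2, 1.78% HFD BAT H3K9me2 and 0.594% SCD WAT H3K9me2. Of the other HFD-only peaks, 22.9% overlapped none, 55.4% overlapped HFD BAT H3K9me2, 43.6% SCD WAT H3K9me2 and 16.7% SCD BAT H3K9me2. Of the SCD-only peaks, 40.8% overlapped none and 27.7% overlapped SCD BAT H3K9me2. The shared peaks overlapped none in 3.14% in SCD and 3.19% in HFD. At the gene level, 59.6% of the HFD-only genes had an HFD BAT H3K9me2 promoter peak, against 24.2% of the SCD-only genes. For SCD BAT H3K9me2 these shares were 18.7% and 34.7%. Genes with peaks in both diets had 70.9% and 78.9% in these 2 lists. The WAT lists did not follow the diet in this way. The shares of HFD-only and SCD-only genes were 56.9% and 45.9% in SCD WAT H3K9me2, and 15.2% and 15.3% in HFD WAT H3K9me2. They were 21.6% and 18.2% in SCD WAT H3K9me3, and 32.1% and 24.4% in HFD WAT H3K9me3. The lists differ in length and lowest score, so these shares are set side by side within a list and not across lists.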

How the data were processed

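ChIP-seq of H3K9me3 in BAT was read from 1 peak list per diet. Per the labels and the methods of the study, FastQC and Trim Galore served for quality control and trimming, Bowtie2 2.4.2 for alignment (mm9) and MACS2 for peak calling, after the authors had discarded reads with multiple mapping sites. The deposited score of each peak is in no stated unit. The 4 inputs were not analysed here. How inputs entered peak calling is not given in the sources used here. Depth is unknown from peak lists, and how many animals a library holds is not stated, so 1 library per diet allows no p-value.

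Chromosome lengths of the reference NCBIM37 were those of mm9. The annotation was GENCODE vM1 (22380 protein-coding genes, 70064 start sites). Overlap needed 1 bp, and promoters were 3 kb on either side. Peaks were aligned with blastn 2.17.0 (word size 16, identity of at least 80%, e-value 1e-10) to L1 elements found through recurrent 20-base words. Calculations used Python 3.11.15, NumPy 2.4.6, SciPy 1.17.1 and matplotlib 3.10.9. On simulated data of 25000 peaks, overlap calls that differed from bedtools 2.31.1 numbered 0. Of 500 simulated windows with an L1 stretch, 100% were called, and 0 of the others. The stretches were cut from a reference element used for the calls, with few bases changed, and set in random sequence. The check therefore does not cover diverged copies, other repeats or the assignment to parts of the element.

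The peaks, gene lists and tests were chosen with earlier results of these data known. Named genes were the 10 with the highest promoter scores in 1 diet only, up to 4 per list and diet, the 5 with the largest rise and fall in percentile, and the strongest peaks and windows. The text prints a part of them. Genes named beyond that rule, among them Prdm16, Ctbp1, Zic1, Adrb3, Frem2, Fgf15, Hjurp, Trpm8, Cpt1a, Fasn, Agpat3, Lpin2, Sirt3 and the genes of windows and gene bodies, were chosen after their values were seen. Alternatives were equal numbers of peaks, a score of at least 80, autosomes alone, stricter and wider overlap, promoters of 1 kb and 1 start site per gene. Leaving out L1 peaks and other L1 limits were added after the data were seen.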

Additional observations from a re-analysis of the deposited data

Results flagged for a closer look

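Outside this comparison, 23.6% of the HFD WAT H3K9me2 peaks lay on ORF1, ORF2 or the 3′ part of L1, against 1.66% in the matching SCD list. In HFD BAT H3K9me2 the share was 0.388%, against 0.0366% in SCD BAT H3K9me2, and both were below the 8.58% of genome windows. They were picked out because the share in an HFD list that the report does not compare was above that in its SCD list, and the difference was not tested. The order was the same in WAT H3K9me3, with 0.148% in HFD and 0.0841% in SCD, although that list was not picked out.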

How the results depend on the processing

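Depth and fold enrichment are unknown, so a missing peak was not detected rather than absent, and with 1 library per diet no replicate could be left out. No paired analysis was possible because each diet had 1 library and no test was made. As reported, 17.5% of SCD and 57.0% of HFD peaks were in 1 diet only. These shares were 33.0% and 32.1% at equal numbers of peaks, 13.8% and 49.1% with scores from 80 up, 15.5% and 52.2% when peaks within 1 kb counted as shared, and 16.6% and 46.1% without L1 peaks. The SCD share was 15.9% on chromosomes 1 to 19. The gene counts of 484 in SCD only and 1977 in HFD only turned to 1437 and 819 at equal numbers, which leaves out the weaker HFD peaks. The promoter shares of 17.2% for SCD-only and 15.6% for HFD-only peaks were 22.6% and 19.17% at equal numbers, 22.5% and 22.1% with scores from 80 up, 13.8% and 10.1% with promoters of 1 kb, 13.5% and 8.86% with 1 start site per gene, and 23.2% and 29.8% without L1 peaks, where the HFD share was the higher. For HFD-only peaks the promoter share was 16.03% on chromosomes 1 to 19 and 15.2% with peaks within 1 kb as shared. The L1 share of 49.5% in HFD-only peaks was 43.1% with scores from 80 up and 48.0% on chromosomes 1 to 19. That of 27.8% in SCD-only peaks was 33.1% with scores from 80 up, 26.5% on chromosomes 1 to 19, 22.3% with 80% of the peak aligned and 33.1% with 20%. The HFD-only L1 share was above the SCD-only one under all 5 alternatives run for it. The other 21 of 50 values stayed within their counting interval or, for gene counts, within 1.5 times.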

Other observations

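Gene families described nowhere above are given here by their counts of genes with a promoter peak, beside the shares of all genes, which were 3.54% for SCD only and 14.5% for HFD only, or 11.5% and 6.54% with equal numbers of peaks. Of 226 zinc finger genes with Zfp symbols, which include many KRAB repressors of transposable elements, 13 were SCD only (5.75%) and 29 HFD only (12.8%), and 40 (19.4%) and 9 (4.37%) at equal numbers. Zfp618 had the highest SCD-only score (320.77) and Zfp408 the highest HFD-only score (268.15). Of 65 replication-dependent histone genes, 60 had peaks in both, and at equal numbers 11 were SCD only (17.2%) and 1 HFD only (1.56%). Of 60 genes of cytoplasmic ribosomal proteins, 52 had peaks in both and 8 were HFD only (13.3%). At equal numbers 8 of them were SCD only (14.3%) and 4 HFD only (7.14%). For those with peaks in both deposited lists, the median difference in percentile was 28.6 points against 13.5 for all genes. They began at a median SCD percentile of 42.7, against 66.2 for all genes, and so had more room to rise. Of 52 keratin genes, 18 were HFD only (34.6%) and 5 SCD only (9.62%), an order that turned to 5 (12.8%) and 8 (20.5%) at equal numbers. Of 1113 olfactory receptor genes, 50 had a promoter peak (4.49%), 23 of them in HFD only (46%) and 7 in SCD only (14%). At equal numbers these were 8 (22.9%) and 12 (34.3%) of 35. Peaks in both diets were found at 32 of 37 Hox genes with a peak, 21 of 23 clustered protocadherins, 34 of 36 imprinted genes and 19 of 21 circadian clock genes, beside 11215 of 13676 of all genes.

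Of 34 germline genes with a peak, which H3K9 methylation and DNA methylation are known to silence in somatic cells, 26 had it in both, 7 were HFD only (20.6%) and Asz1 was SCD only (52.93). At equal numbers 4 were HFD only (12.9%) and 3 SCD only (9.68%). Stra8, the retinoic acid target that starts meiosis, had the highest of the HFD-only scores (231.39). Of 31 genes for H3K9 methylation writers, erasers and readers with a peak, 27 had it in both, 2 were SCD only (6.45%) and 2 HFD only (6.45%), or 3 (10%) and 1 (3.33%) at equal numbers. The SCD-only genes were Suv39h1, an H3K9 methyltransferase on X (84.8), and 1 annotated entry of Atf7ip, a partner of the methyltransferase Setdb1 (75.6). Another entry of Atf7ip had peaks in both diets (65.44 in SCD and 108.93 in HFD), so Atf7ip was not without an HFD promoter peak. The HFD-only genes were Mphosph8, a chromodomain reader of H3K9me3 in the HUSH complex (189.39), and Kdm4a, an H3K9 demethylase (77.53).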
